A study of Rattus norvegicus with 47 samples.

Results

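Cytochrome P450 genes were followed through 44 RNA-seq libraries from the brains of Sprague-Dawley rats, 22 from striatum and 22 from cerebellum. The members were every gene in the count tables whose symbol starts with Cyp and a number, and there were 73 of them among 15319 genes. The rat RefSeq gene list holds 104 such symbols, and those absent from the count tables could not be followed. PCB52 is an ortho-substituted, non-dioxin-like polychlorinated biphenyl, and the exposed rats inhaled it nose-only in daily sessions of 4 h for 28 days. Males entered their exposure groups at an age of 39 days and females at 42 days, and sham-exposed rats of the same strain and ages were the controls. Striatum gave 6 libraries of PCB52 females, 6 of sham females, 6 of PCB52 males and 4 of sham males, and cerebellum gave 6, 6, 5 and 5 in the same order. Each library came from a tissue punch of 1 animal, so p-values within a region rest on the spread between animals. Both regions came from the same animal in 21 animals. The main test between regions did not use this pairing, and a fit with the animal as a block was an alternative.

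Cytochrome P450 enzymes are heme proteins that insert an oxygen atom into fatty, steroid-like or foreign molecules. Most sit in the endoplasmic reticulum and draw electrons from the reductase encoded by Por, and some sit in mitochondria and draw them from ferredoxin. In liver the Cyp1, Cyp2 and Cyp3 families clear drugs and pollutants, and their genes are classic targets of the receptors AHR, CAR and PXR, of which CAR and PXR are the ones known to answer to non-dioxin-like biphenyls. In brain the best known member is Cyp46a1, the neuronal cholesterol 24-hydroxylase, whose product leaves the brain and so carries cholesterol out of it. Other brain members act on oxysterols, retinoic acid, arachidonic acid and neurosteroids.

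Of the 73 members, 28 (38.4%) reached a mean of 1 CPM (counts scaled to a common sequencing depth) in striatum and 23 (31.5%) in cerebellum. Over all genes in the tables the same shares were 79.4% and 76.3%. All 23 members detected in cerebellum were also detected in striatum, and 5 passed in striatum alone: Cyp2r1, Cyp3a62, Cyp39a1, Cyp4f37 and Cyp2d1. Members were grouped by a role assigned to each subfamily from its symbol, which need not hold for every enzyme. Detection covered 14 of 20 genes of fatty acid and arachidonate metabolism, 5 of 7 of cholesterol and bile acid metabolism, and 5 of 33 genes of drug and pollutant metabolism. It covered 1 of 7 genes of steroid hormone synthesis, 1 of 3 of vitamin D metabolism and 1 of 2 of retinoic acid breakdown, and also Cyp20a1, whose substrate is not settled. Cyp2t1, placed by its symbol among the 5 detected drug and pollutant genes, likewise has no settled substrate. In striatum the members nearest the limit were Cyp2d1 at 1.00 CPM and Cyp4f37 at 1.03 CPM inside it, and Cyp2d3 at 0.837 CPM and Cyp19a1 at 0.736 CPM outside it. In cerebellum they were Cyp2j4 at 1.04 CPM inside it, and Cyp3a62 at 0.958 CPM and Cyp2e1 at 0.869 CPM outside it. Single libraries carried some members past the limit: the striatal mean was 0.891 CPM for Cyp2d1 without sham male 11 and 0.970 CPM for Cyp4f37 without sham female 2, and the cerebellar mean of Cyp2j4 was 0.989 CPM without PCB52 male 23.

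Sequencing depth ran from 5684508 to 8914523 counts in striatal libraries and from 6524400 to 15865054 in cerebellar ones. A count of 0 over a whole region allows up to 0.0205 CPM in striatum and 0.0167 CPM in cerebellum, taken as 3 counts over its libraries, which covers counting error only. The labelled regions matched their markers, with a mean log2 CPM of the striatal projection neuron list of 9.45 in the median striatal library and 2.82 in the median cerebellar one, and of the granule cell list of 1.41 and 9.53. Several libraries stood apart. Transcripts of both sexes were present in striatum sham male 3 and in cerebellum sham females 8 and 10 and sham males 9 and 11. For these it is uncertain that the library held RNA of 1 animal of the labelled sex. Marker lists of another tissue exceeded the median of their region by over 2 log2 units in 6 striatal libraries (PCB52 females 14, 20 and 22, PCB52 male 19, and sham females 6 and 12) and in cerebellum sham male 1. The libraries are counted in all values below unless stated, and values without them are given for some results. Because tissue was sequenced in bulk, fewer cells of a type and less RNA per cell cannot be told apart.

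**Figure D1:**
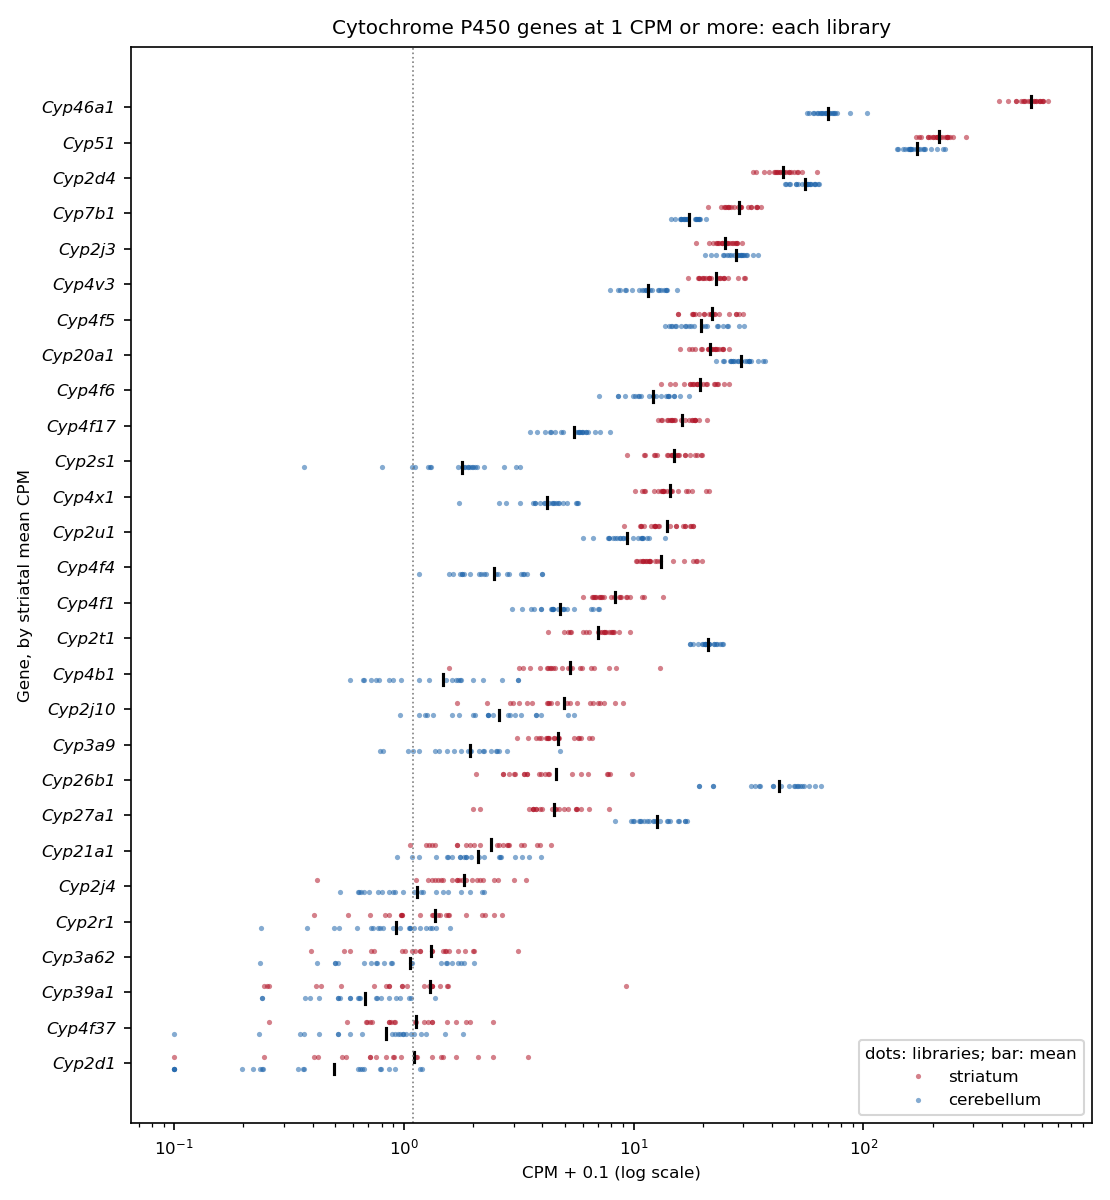
Level of each of the 28 detected genes in every library, as CPM plus 0.1 on a log axis, with striatal libraries in red above cerebellar libraries in blue and a bar at the mean. The dotted line marks the 1 CPM limit; Cyp46a1 lies far to the right in striatum, and Cyp26b1, Cyp27a1 and Cyp2t1 lie to the right in cerebellum.

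Members of cholesterol metabolism held the most reads. Cyp46a1 ran from 389 through a median of 543 to 637.6 CPM in striatum, against 56.6, 68.3 and 104 CPM in cerebellum. The lowest striatal library lay far above the highest cerebellar one, and the striatal level was the higher in 21 of 21 animals. Means were 534 ± 63.6 CPM in striatum and 69.7 ± 10.4 CPM in cerebellum (SD, n = 22 each), a 7.65-fold difference, and the fitted log2 fold change was 2.94 ± 0.06 (SE; edgeR quasi-likelihood test, adjusted p = 1.58e-34). Cyp51, lanosterol demethylase of cholesterol synthesis, ran from 170 through 210 to 279 CPM in striatum, against 139, 163 and 226 CPM in cerebellum. Its ranges overlapped, yet 19 of 21 animals had more in striatum, with a log2 fold change of 0.32 ± 0.05 (edgeR adjusted p = 1.34e-06).

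Enzymes that act on oxysterols parted in direction between the regions. Cyp7b1, the oxysterol 7-alpha-hydroxylase, ran from 20.9 through 28.6 to 35.8 CPM in striatum, against 14.4, 16.8 and 20.5 CPM in cerebellum. No striatal library fell within the cerebellar range, and the log2 fold change was 0.73 ± 0.06 (edgeR adjusted p = 6.06e-15). Cyp27a1, the mitochondrial sterol 27-hydroxylase, went the other way, at 1.90, 4.36 and 7.69 CPM in striatum against 8.23, 12.1 and 16.9 CPM in cerebellum. Every cerebellar library lay above every striatal one, and the log2 fold change was -1.52 ± 0.11 (edgeR adjusted p = 1.87e-15). Cyp39a1, which hydroxylates the product of Cyp46a1, averaged 1.20 CPM in striatum only because striatum sham female 12 held 9.16 CPM. The other 21 striatal libraries averaged 0.825 CPM, against 0.575 ± 0.284 CPM in cerebellum (SD, n = 22), and the gene was not tested between regions. In that same library the mean log2 CPM of the olfactory bulb list was 5.11, against a striatal median of 0.56, with 3 of the list's 4 genes measured. The part of olfactory bulb tissue in its Cyp39a1 level was not tested.

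Retinoic acid breakdown showed the steepest fall in striatum relative to cerebellum among the tested members. Cyp26b1, a retinoic acid hydroxylase, stood at 1.96, 3.81 and 9.78 CPM (lowest, median, highest) in striatum, against 19.2, 45.6 and 65.6 CPM in cerebellum. The regions did not overlap, all 21 animals had less in striatum, and the log2 fold change was -3.28 ± 0.18 (edgeR adjusted p = 3.39e-20). The gene also varied more between libraries of a region than Cyp46a1 did, with a coefficient of variation of 46.5% in striatum and 32.5% in cerebellum, against 11.9% and 14.9% for Cyp46a1. In striatum its highest libraries were PCB52 female 14 at 9.78, PCB52 male 19 at 7.79, PCB52 female 22 at 7.61 and sham female 10 at 7.51 CPM. The mean log2 CPM of the cortical excitatory neuron list was 5.13, 4.84 and 4.28 in PCB52 female 14, PCB52 male 19 and PCB52 female 22. It was 2.34 in sham female 10, and 4.13 in sham female 6, whose Cyp26b1 level was 3.34 CPM. The striatal median of that list was 1.78, and its part in the Cyp26b1 levels was not tested. Without the libraries holding other tissue the region difference was -3.36 ± 0.19. Its relative Cyp26a1 stayed under 1 CPM in every library. Among the receptors for retinoic acid, Rarb differed by 4.45 ± 0.10 on the log2 scale, higher in striatum, and Rara by -1.37 ± 0.07, both past the threshold (edgeR adjusted p = 2.64e-33 and 2.38e-20).

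Fatty acid and arachidonate enzymes were mostly higher in striatum: of 14 tested, 11 were higher, Cyp2j3 was lower, and Cyp4f5 and Cyp4f37 did not pass. Cyp2s1, an enzyme that in humans acts on prostaglandin endoperoxides and retinoic acid, ran from 9.27 through 14.8 to 19.7 CPM in striatum, against 0.266, 1.77 and 3.09 CPM in cerebellum. The regions were wholly apart, with a log2 fold change of 3.14 ± 0.14 (edgeR adjusted p = 8.89e-23). Cyp4f4, one of the omega-hydroxylases of leukotrienes and arachidonate in rat, stood at 10.1, 11.6 and 19.7 CPM in striatum against 1.06, 2.15 and 3.90 CPM in cerebellum. It too did not overlap, with a log2 fold change of 2.46 ± 0.12 (edgeR adjusted p = 2.76e-21).

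The same Cyp4f subfamily held genes with little or no region difference, so the family did not move as a block. The log2 fold change was 1.57 ± 0.08 for Cyp4f17, 0.79 ± 0.10 for Cyp4f1 and 0.69 ± 0.08 for Cyp4f6, all called. For Cyp4f5 it was 0.17 ± 0.09 (edgeR adjusted p = 0.0942), with means of 21.8 ± 4.06 CPM in striatum and 19.6 ± 4.91 CPM in cerebellum (SD, n = 22 each), and for Cyp4f37 it was 0.48 ± 0.24 (adjusted p = 0.0596). Cyp4x1, a brain-rich enzyme whose human form oxidises anandamide, averaged 14.2 ± 2.93 CPM in striatum and 4.09 ± 1.01 CPM in cerebellum (SD, n = 22 each), 1.81 ± 0.10 on the log2 scale. Cyp4v3, the rat counterpart of a human fatty acid hydroxylase of the eye, averaged 22.7 ± 3.62 CPM in striatum and 11.4 ± 2.04 CPM in cerebellum, 1.00 ± 0.07 on that scale. Neither gene's regions overlapped. Cyp4b1, a hydroxylase best known from lung, differed by 1.98 ± 0.20 and overlapped, from 1.46 to 12.9 CPM in striatum and 0.481 to 3.04 CPM in cerebellum. Cyp2u1, which hydroxylates long-chain fatty acids in humans, differed by 0.57 ± 0.09. Among the arachidonate epoxygenases of the Cyp2j subfamily, the log2 fold change was 0.97 ± 0.18 for Cyp2j10, 0.75 ± 0.20 for Cyp2j4 and -0.15 ± 0.05 for Cyp2j3 (edgeR adjusted p = 7.25e-06, 0.000712 and 0.0112). The Cyp2j3 call did not hold with the animal as a block, where it was -0.13 ± 0.06 (edgeR adjusted p = 0.0646). Members of the Cyp4f, Cyp2j and Cyp2d subfamilies are similar in sequence, and how reads were divided between them is not known here, so the split among these genes is uncertain.

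Few members assigned to drug and pollutant metabolism were detected, and their region differences went in both directions. Cyp2d4, the main rat brain member of its subfamily, which also hydroxylates steroids, stood at 33.0, 44.1 and 62.4 CPM in striatum against 45.5, 56.9 and 64.2 CPM in cerebellum. Ranges overlapped, but 18 of 21 animals had less in striatum, at -0.31 ± 0.06 on the log2 scale (edgeR adjusted p = 6.51e-06). Cyp2t1, whose substrates are not settled, ran from 4.12 through 7.24 to 9.56 CPM in striatum, against 17.4, 20.7 and 24.4 CPM in cerebellum. The regions did not overlap, with a log2 fold change of -1.61 ± 0.07 (edgeR adjusted p = 1.75e-23). Cyp3a9, a rat Cyp3a form that hydroxylates steroids, averaged 4.57 ± 0.923 CPM in striatum and 1.84 ± 0.872 CPM in cerebellum (SD, n = 22 each), 1.33 ± 0.15 on the log2 scale. Cyp2d1, the rat debrisoquine hydroxylase, differed by 1.32 ± 0.37 at levels of 0 to 3.35 CPM in striatum and 0 to 1.10 CPM in cerebellum. Cyp3a62 differed by 0.35 ± 0.25, which did not pass (edgeR adjusted p = 0.192).

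Remaining detected members served vitamin D, steroid and unsettled roles. Cyp2r1, the vitamin D 25-hydroxylase, averaged 1.26 ± 0.612 CPM in striatum and 0.821 ± 0.348 CPM in cerebellum (SD, n = 22 each), 0.59 ± 0.20 on the log2 scale (edgeR adjusted p = 0.00731). Cyp21a1, the steroid 21-hydroxylase, averaged 2.29 ± 0.945 CPM in striatum and 2.00 ± 0.804 CPM in cerebellum, and its log2 difference of 0.23 ± 0.17 did not pass (edgeR adjusted p = 0.207). Cyp20a1 averaged 21.4 ± 2.52 CPM in striatum and 29.3 ± 3.81 CPM in cerebellum, lower in striatum in 21 of 21 animals, at -0.45 ± 0.05 on the log2 scale (edgeR adjusted p = 5.84e-10).

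In all, 17 of 27 tested members were higher in striatum and 6 were lower. In the fits of single regions, 27 members passed the filter on low counts in striatum and 24 in cerebellum. Cyp2d1, counted among the 17, passed it in striatum alone. A member kept only through striatum could hardly be called lower there, so the count and the median below lean that way. The same filter kept 12142 of all genes in striatum and 11690 in cerebellum. Over all 12446 genes tested between the regions, 38.5% were higher and 42.4% lower in striatum, so a call between these regions was common. The median log2 fold change was 0.69 over the members and -0.04 over all genes. Among the 28 detected members, 7 were higher in striatum with no overlap of libraries and 3 were lower, while 11.6% and 9.66% of all detected genes were so. The lists of other cell types also differed between regions, with a mean log2 CPM in the median library of 9.74 in striatum and 8.52 in cerebellum for oligodendrocytes, 8.18 and 7.55 for astrocytes, 5.47 and 3.85 for microglia, and 5.16 and 4.03 for endothelium. All 6, 8, 8 and 10 genes of these lists were measured. Their part in the members' differences was not tested.

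**Figure D2:**
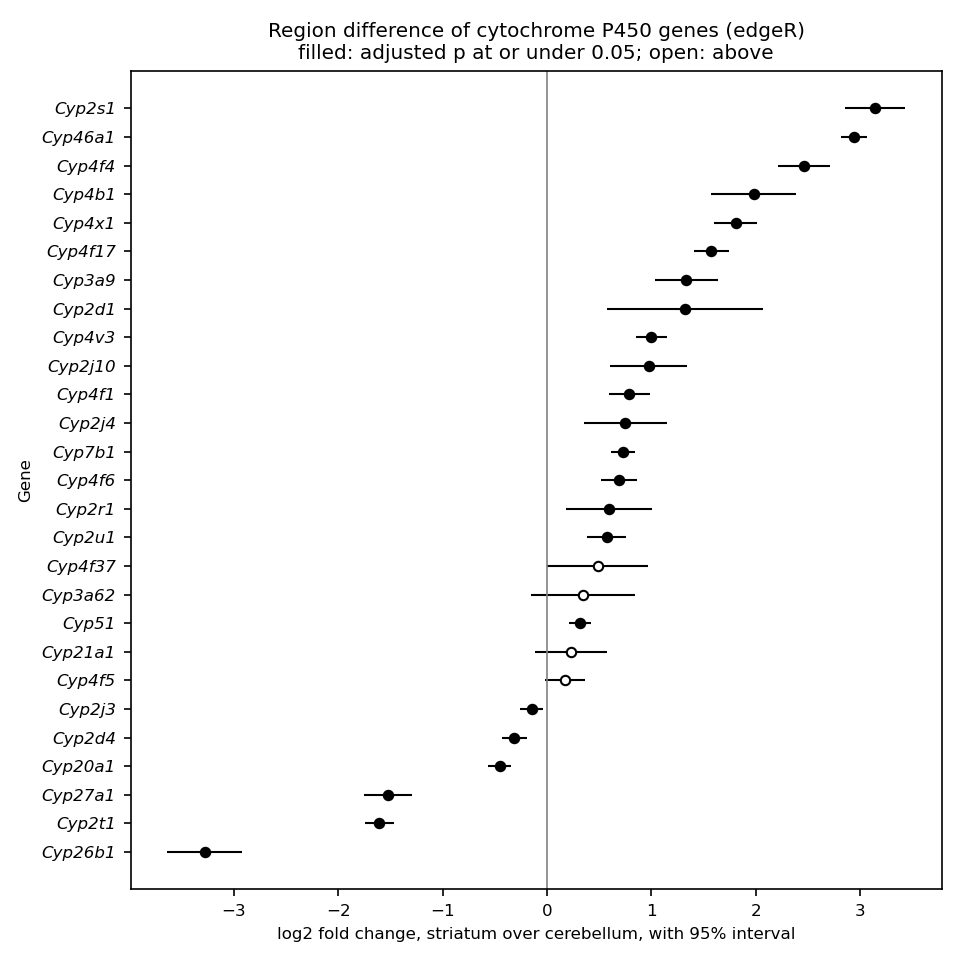
Log2 fold change of striatum over cerebellum for the 27 tested members, with the 95% interval of the fit; filled points passed an adjusted p of 0.05. Cyp2s1 at 3.14 and Cyp46a1 at 2.94 head the striatal side, and Cyp26b1 at -3.28 lies farthest on the cerebellar side.

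Of the 45 members below the limit, 8 reached 1 CPM in at least 1 library. Cyp19a1, aromatase, peaked at 2.41 CPM in striatum PCB52 male 13, and its reads numbered 107 over the striatal libraries and 14 over the cerebellar ones. With no filter on low counts its log2 fold change between regions was 3.11 ± 0.46 (edgeR adjusted p = 1.17e-07). Cyp2e1, the ethanol-oxidising form, had 22 reads in striatum and 160 in cerebellum and peaked at 2.70 CPM in cerebellum sham male 1. Its log2 fold change with no filter was -2.54 ± 0.42 (edgeR adjusted p = 8.08e-07). The choroid plexus list mean was 5.36 in cerebellum sham male 1, against a cerebellar median of 0.93. Cerebellum PCB52 female 14, at 0.94 in that list, held 1.86 CPM of Cyp2e1. Striatum PCB52 female 20, at 7.75 in that list, had 0 reads of Cyp2e1. The part of choroid plexus tissue in the Cyp2e1 levels was not tested. Cyp1b1, an enzyme of blood vessels that AHR can induce, peaked at 2.02 CPM in cerebellum PCB52 female 24. That library was also the highest cerebellar one in the meningeal fibroblast list, at a mean log2 CPM of 5.05 against a median of 3.33. Cerebellum PCB52 male 23, at 5.02 in that list, had 0 reads of Cyp1b1. The part of meningeal tissue in the Cyp1b1 levels was not tested. Cyp2d3 peaked at 1.78 CPM and Cyp27b1, the vitamin D 1-alpha-hydroxylase, at 1.34 CPM, both in striatum sham male 1. Of the adrenal steroid enzymes, which resemble each other in sequence, Cyp11b3, Cyp11b1 and Cyp11b2 peaked at 2.03, 1.32 and 1.31 CPM, all in cerebellum.

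A further 21 members had some reads but stayed under 1 CPM in every library: Cyp11a1, Cyp17a1, Cyp1a1, Cyp24a1, Cyp26a1, Cyp2a2, Cyp2a3, Cyp2b21, Cyp2c11, Cyp2c13, Cyp2c22, Cyp2c23, Cyp2d2, Cyp2d5, Cyp2f4, Cyp3a23-3a1, Cyp4a1, Cyp4a8, Cyp4f18, Cyp4f40 and Cyp7a1. No read fell on 16 members in any of the 44 libraries: Cyp1a2, Cyp2a1, Cyp2b1, Cyp2b2, Cyp2b3, Cyp2b12, Cyp2b15, Cyp2c6v1, Cyp2c7, Cyp2c12, Cyp2c24, Cyp3a2, Cyp3a18, Cyp4a2, Cyp4a3 and Cyp8b1. Of these 16, 13 were assigned to drug and pollutant metabolism.

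Detected and undetected members lie side by side in the rat genome. In gene order on the assembly GRCr8, used for order alone, a run of Cyp genes with at most 2 other protein-coding genes between neighbours starts at Cyp2s1 and ends at Cyp2t1. It holds 12 members of the count tables, and only its 2 end genes were detected, while each of the 10 Cyp2b, Cyp2a and Cyp2f genes between them had at most 8 reads in a region. A second run from Cyp4x1 to Cyp4b1 holds 6 counted members, with the 2 end genes detected and the 4 Cyp4a genes between them not. In the Cyp4f run from Cyp4f17 to Cyp4f4, 4 of 5 counted members were detected. All 3 counted Cyp2j members and 2 of 5 in the Cyp2d run passed, and none did in the runs of Cyp2c, Cyp11b and Cyp1a genes or in that of Cyp3a18, Cyp3a2 and Cyp3a23-3a1.

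Promoter sequences are shown for 4 members that mark the range: Cyp46a1 and Cyp2s1, far higher in striatum, Cyp26b1, far higher in cerebellum, and Cyp2b1, the inducible liver gene next to Cyp2s1 with 0 reads. Each is the RefSeq window of 300 bases on GRCr8, from 250 before to 50 after the gene's start, written 5′ to 3′ on the gene's strand, with CG pairs in capitals. The windows are chr6:133011740-133012039 on the plus strand for Cyp46a1, chr1:90453024-90453323 on the minus strand for Cyp2s1, chr4:118616127-118616426 on the minus strand for Cyp26b1 and chr1:90645869-90646168 on the plus strand for Cyp2b1.
Cyp46a1: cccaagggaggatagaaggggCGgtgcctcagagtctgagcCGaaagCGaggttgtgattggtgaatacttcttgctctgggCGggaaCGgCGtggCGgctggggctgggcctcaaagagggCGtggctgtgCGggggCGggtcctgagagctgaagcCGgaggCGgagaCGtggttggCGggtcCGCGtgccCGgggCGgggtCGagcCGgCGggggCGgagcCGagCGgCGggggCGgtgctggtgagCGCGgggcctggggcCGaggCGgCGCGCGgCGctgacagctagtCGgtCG
Cyp2s1: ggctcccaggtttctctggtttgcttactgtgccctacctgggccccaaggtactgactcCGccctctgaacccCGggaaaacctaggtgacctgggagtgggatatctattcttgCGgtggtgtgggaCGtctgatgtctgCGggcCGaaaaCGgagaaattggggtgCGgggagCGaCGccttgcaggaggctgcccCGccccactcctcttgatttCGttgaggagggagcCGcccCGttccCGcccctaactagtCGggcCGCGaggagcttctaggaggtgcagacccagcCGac
Cyp26b1: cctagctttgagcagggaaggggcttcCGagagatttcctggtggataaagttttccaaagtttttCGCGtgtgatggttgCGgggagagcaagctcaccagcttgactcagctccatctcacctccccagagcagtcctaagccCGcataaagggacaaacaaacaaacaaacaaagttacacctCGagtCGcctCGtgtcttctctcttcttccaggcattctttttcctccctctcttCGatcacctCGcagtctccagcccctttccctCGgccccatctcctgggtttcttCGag
Cyp2b1: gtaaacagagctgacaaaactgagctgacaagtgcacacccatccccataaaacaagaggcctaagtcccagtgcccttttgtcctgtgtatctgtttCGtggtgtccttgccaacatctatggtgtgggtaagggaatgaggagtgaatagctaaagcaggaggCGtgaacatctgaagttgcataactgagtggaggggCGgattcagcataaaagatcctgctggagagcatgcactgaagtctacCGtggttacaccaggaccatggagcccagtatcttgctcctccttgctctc

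These windows held 36 CG pairs for Cyp46a1, 19 for Cyp2s1, 12 for Cyp26b1 and 4 for Cyp2b1. The table had a window for 24 of the 28 detected members and for 15 of the 16 with 0 reads. The median number of CG pairs was 9 (range 2 to 36) in detected members and 1 (range 0 to 5) in those with 0 reads. At least 10 pairs were found in 44.1% of all 27457 windows of that length and in 71.0% of those of genes in the count tables. Such windows numbered 11 of 24 in detected members (45.8%) and 0 of 15 in those with 0 reads. Undetected members with some reads are in neither set. CG pairs and detection did not go together in every member. Cyp3a9 and Cyp4b1 were detected with 3 pairs each, while Cyp26a1 with 25 and Cyp1b1 with 19 were not detected. The letters GCGTG, the core of the element that AHR binds, were searched on both strands. They occurred in 12 of 24 detected members and in 2 of 15 members with 0 reads. They also occurred in 31.1% of all windows and in 44.4% of those of genes in the count tables. The search letters contain a CG pair, so the shares of both features are not separate observations.

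**Figure D3:**
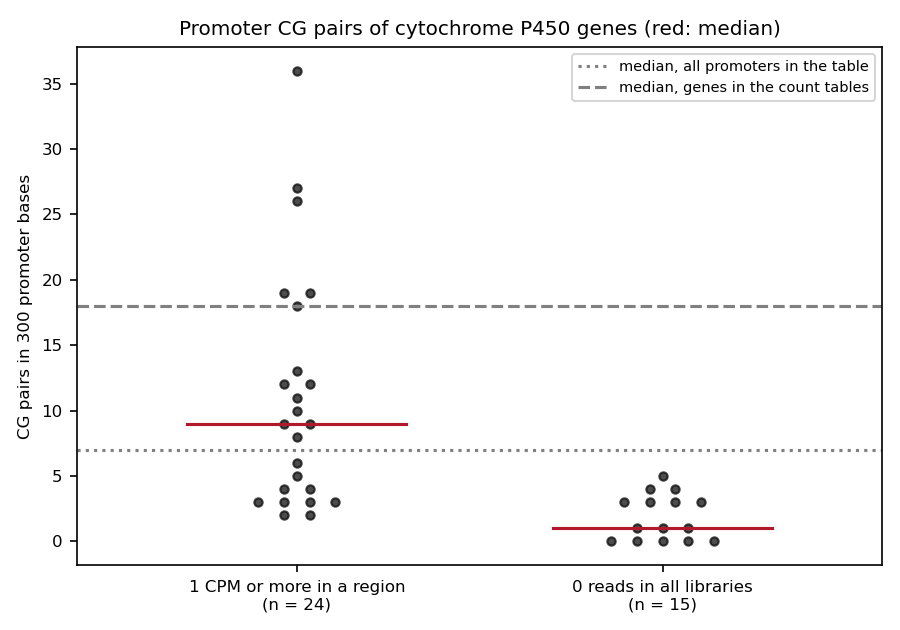
Number of CG pairs in the 300-base promoter window of detected members (24, left) and members with 0 reads (15, right), each point a gene and the red line the median, at 9 and 1. Dotted and dashed lines give the medians of all windows, 7, and of genes in the count tables, 18.

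Exposure to PCB52 was compared with sham within each sex and region. No cytochrome P450 gene passed an adjusted p of 0.05 in any exposure comparison, and no gene of any kind did, so that 0% of the 12142 genes tested in striatum and of the 11690 in cerebellum were called. DESeq2 and limma voom also called 0 members in every exposure comparison, and in striatum both had 0 members at an unadjusted p under 0.05. Of the classic inducible genes, Cyp1a2, Cyp2b1, Cyp2b2 and Cyp3a2 had 0 reads in the 23 PCB52 libraries and in the 21 sham libraries. How reads that match several genes were counted is not known, so 0 reads need not mean no transcript or no induction. In striatum a count of 0 allows up to 0.0385 CPM over the PCB52 libraries and 0.0438 CPM over the sham libraries, and in cerebellum 0.0300 and 0.0376 CPM. Cyp3a23-3a1 had 0 reads in PCB52 libraries and 2 reads, both in striatum sham female 2, in sham libraries.

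Cyp1a1, the most AHR-responsive gene of the family, had 5 reads in 2 of 12 striatal PCB52 libraries, 4 of them in PCB52 female 18, against 2 reads in 2 of 10 sham libraries. In cerebellum it had 10 reads over 11 PCB52 libraries and 9 reads over 11 sham libraries. Cyp1b1 had 36 reads over the striatal PCB52 libraries and 36 over the sham ones. In cerebellum Cyp1b1 had 32 reads over PCB52 libraries and 55 over sham libraries, a pooled 0.320 against 0.689 CPM. Both genes fell below the filter on low counts. In the fit with no filter Cyp1b1 differed by -1.14 ± 0.55 on the log2 scale in cerebellum over both sexes, which did not pass (edgeR unadjusted p = 0.0492, adjusted p = 0.375).

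In striatum, 0 of 27 tested members had an unadjusted edgeR p under 0.05 in females, in males, in the mean of both sexes or in the difference between the sexes. Over all genes that share was 13.4%, 0.898%, 5.80% and 3.88% in the same order. In females the members of lowest p were Cyp4f6 at 0.21 ± 0.13, Cyp4v3 at -0.19 ± 0.13 and Cyp20a1 at -0.13 ± 0.10 on the log2 scale, with a lowest adjusted p of 0.433 among the members. Without 1 sham female the value was -0.11 for Cyp4v3 (sham female 8) and -0.07 for Cyp20a1 (sham female 4). In males they were Cyp2d1 at -0.83 ± 0.65, Cyp4v3 at -0.16 ± 0.14 and Cyp4f17 at -0.14 ± 0.14 (lowest edgeR adjusted p = 1.00). In the mean of both sexes they were Cyp4v3 at -0.18 ± 0.10, Cyp4b1 at -0.31 ± 0.24 and Cyp2t1 at -0.16 ± 0.13 (lowest edgeR adjusted p = 0.774). The female effect minus the male effect was 0.29 ± 0.19 for Cyp4f6, 1.25 ± 0.89 for Cyp2d1 and -0.46 ± 0.39 for Cyp27a1 (lowest edgeR adjusted p = 0.914). The Cyp2d1 value in males rested on few reads and was -0.03 without striatum sham male 11, and that of Cyp4v3 was then -0.05 and that of Cyp4f17 -0.03. Without sham male 3 the male values were -0.26 for Cyp4v3 and -0.21 for Cyp4f17. Over both sexes Cyp4v3 was -0.12 without sham male 11, and Cyp4b1 was -0.15 without sham female 4, which held 12.9 CPM. The difference between the sexes was 0.44 for Cyp2d1 without sham male 11 and -0.26 for Cyp27a1 without sham female 12, the library with olfactory bulb markers.

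Striatal Cyp46a1 ran from 389 through 489 to 637.6 CPM in PCB52 females, against 463, 545 and 604 CPM in sham females. In males it ran from 518 through 544 to 605 CPM with PCB52, against 461, 552, 565 and 588 CPM in the 4 sham animals. Exposed and sham libraries overlapped in both sexes, and the 95% interval of the log2 fold change was -0.34 to 0.09 in females and -0.21 to 0.27 in males. For Cyp51 the intervals were -0.27 to 0.14 in females and -0.31 to 0.14 in males. For low members the intervals were much wider, and that of Cyp2d1 in males reached -2.18, so a change of that size was not excluded.

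In cerebellum of females, 3 of 24 tested members had an unadjusted edgeR p under 0.05, against 3.16% of all genes, and DESeq2 and limma voom put 3 and 5 there. Cyp51 ran from 139 through 158 to 172 CPM in PCB52 females, against 165, 182 and 226 CPM in sham females. Exposed animals lay lower as a group but overlapped the sham animals, and the log2 fold change was -0.29 ± 0.10 (edgeR unadjusted p = 0.0106, adjusted p = 1.00). Cyp46a1 ran from 66.1 through 75.4 to 104 CPM in PCB52 females, against 57.6, 61.9 and 73.5 CPM in sham females. Of the 6 exposed libraries, 4 lay above every sham library, and its log2 fold change was 0.28 ± 0.10 (edgeR unadjusted p = 0.0107, adjusted p = 1.00), or 0.18 without PCB52 female 24. Among those 4, the Purkinje cell list stood at 9.50 and 9.42 in PCB52 females 16 and 20, and at 9.19 and 8.92 in 18 and 24. In sham females it ran from 8.82 to 9.30. The part of cell make-up in the Cyp46a1 levels was not tested. Cyp4v3 ran from 7.78 through 10.4 to 12.7 CPM in PCB52 females, against 9.73, 13.6 and 15.3 CPM in sham females, with overlap and a log2 fold change of -0.34 ± 0.16 (edgeR unadjusted p = 0.0397, adjusted p = 1.00). Sham females 8 and 10 held transcripts of both sexes. Without all cerebellar libraries of that kind the values were -0.34 ± 0.12 for Cyp51 and 0.29 ± 0.12 for Cyp46a1, and neither passed.

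In cerebellum of males, 1 of 24 tested members had an unadjusted edgeR p under 0.05, against 14.3% of all genes, and DESeq2 and limma voom put 1 and 2 there. Cyp2j3 held 29.0, 21.6, 28.4, 20.4 and 24.6 CPM in PCB52 males, against 26.4, 34.5, 29.8, 25.8 and 29.3 CPM in sham males. The groups overlapped, and the log2 fold change was -0.25 ± 0.12 (edgeR unadjusted p = 0.0435, adjusted p = 0.313). Cyp4x1 at -0.47 ± 0.24 and Cyp26b1 at -0.55 ± 0.32 came next. Sham males 9 and 11, with the female transcript Xist at 267 and 299 CPM, held transcripts of both sexes, and these male values include them. Cyp26b1 ran from 19.2 through 35.3 to 51.3 CPM in the 5 PCB52 males, against 32.3, 50.4 and 65.6 CPM in the 5 sham males. Exposed animals reached lower values, and the groups overlapped. The lowest exposed males, 15 and 23, were also the lowest males in the astrocyte list, at a mean log2 CPM of 6.79 and 6.55, and in the granule cell list, at 9.25 and 9.003. Over the groups the astrocyte list ran from 6.55 to 7.62 in PCB52 males and from 7.33 to 7.83 in sham males, and the granule cell list from 9.003 to 9.70 in PCB52 males and from 9.38 to 9.80 in sham males. The Purkinje cell list ran from 8.97 to 9.58 in PCB52 males and from 8.67 to 9.41 in sham males, with males 15 and 23 at 9.44 and 9.58. All 8, 7 and 5 genes of these lists were measured. PCB52 females 16 and 20, the lowest females in Cyp26b1, stood at 9.03 each in the granule cell list. The part of these lists in the Cyp26b1 levels was not tested. Cyp51 and Cyp46a1, the leading genes in females, differed by -0.06 ± 0.11 and -0.01 ± 0.11 in males.

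Over both sexes in cerebellum, 4 of 24 members had an unadjusted edgeR p under 0.05, against 14.8% of all genes, and DESeq2 and limma voom put 4 and 6 there. These were Cyp2j3 at -0.20 ± 0.08, Cyp51 at -0.17 ± 0.08, Cyp4v3 at -0.24 ± 0.12 and Cyp2t1 at 0.13 ± 0.06 (lowest edgeR adjusted p = 0.326). The female effect minus the male effect had its lowest p for Cyp2j10 at -1.31 ± 0.55 (edgeR unadjusted p = 0.0282, adjusted p = 0.774), followed by Cyp46a1 at 0.29 ± 0.15 (0.19 without PCB52 female 24) and Cyp21a1 at -0.88 ± 0.47, and 1 of 24 members and 2.17% of all genes were under 0.05. Cyp2j10 had a median of 1.87 CPM in PCB52 females and 2.87 CPM in sham females, and held 5.09, 3.67, 3.65, 2.23 and 1.64 CPM in PCB52 males against 1.14, 3.85, 1.89, 0.856 and 2.22 CPM in sham males. Both pairs of groups overlapped.

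The exposure effect in striatum minus that in cerebellum passed for 0 of 27 members, and 0% of the 12446 genes were called. At an unadjusted p under 0.05 there was 1 member by edgeR, against 18.3% of all genes, while DESeq2 and limma voom put 2 and 3 there and called 0. Cyp2t1 differed by -0.31 ± 0.14, Cyp26b1 by 0.68 ± 0.34 and Cyp46a1 by -0.20 ± 0.11 (lowest edgeR adjusted p = 0.268). Without the libraries holding markers of another tissue the difference was 0.15 for Cyp26b1 and -0.13 for Cyp46a1. No detected member had PCB52 and sham libraries wholly apart in either sex or region. Of all detected genes, 0.551% did so in striatum of females, 0.37% in striatum of males, 0.231% in cerebellum of females and 0.822% in cerebellum of males.

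**Figure D4:**
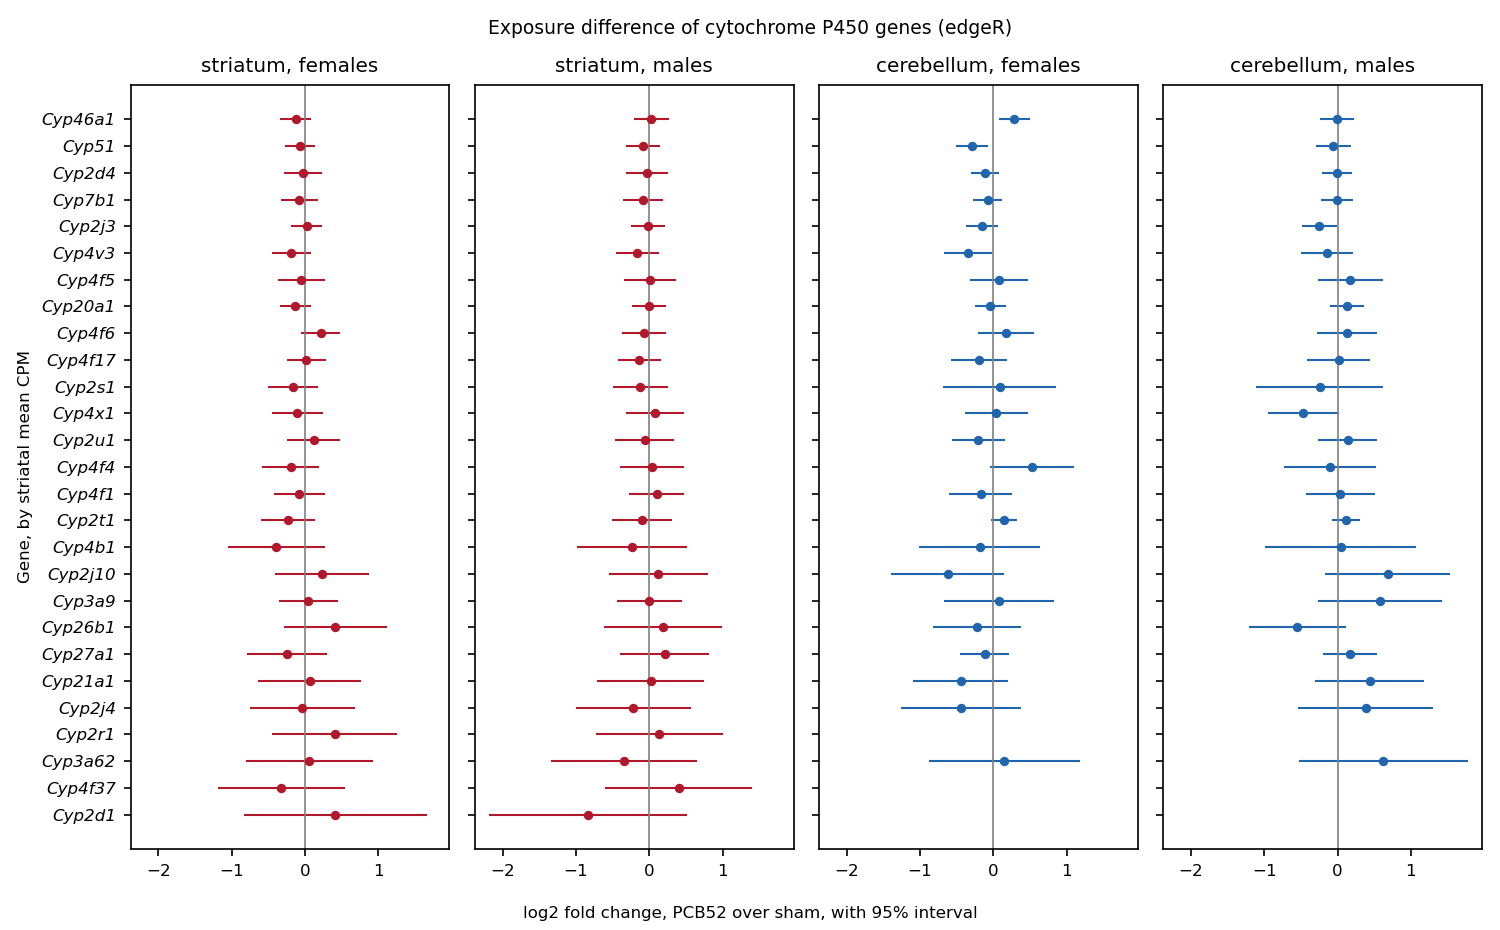
Log2 fold change of PCB52 over sham with the 95% interval of the fit, for the 27 members tested in striatum and 24 in cerebellum, by sex; genes are in order of striatal mean CPM. Intervals are narrow for Cyp46a1 and Cyp51 and widest for low genes such as Cyp2d1, and most cross 0.

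**Figure D5:**
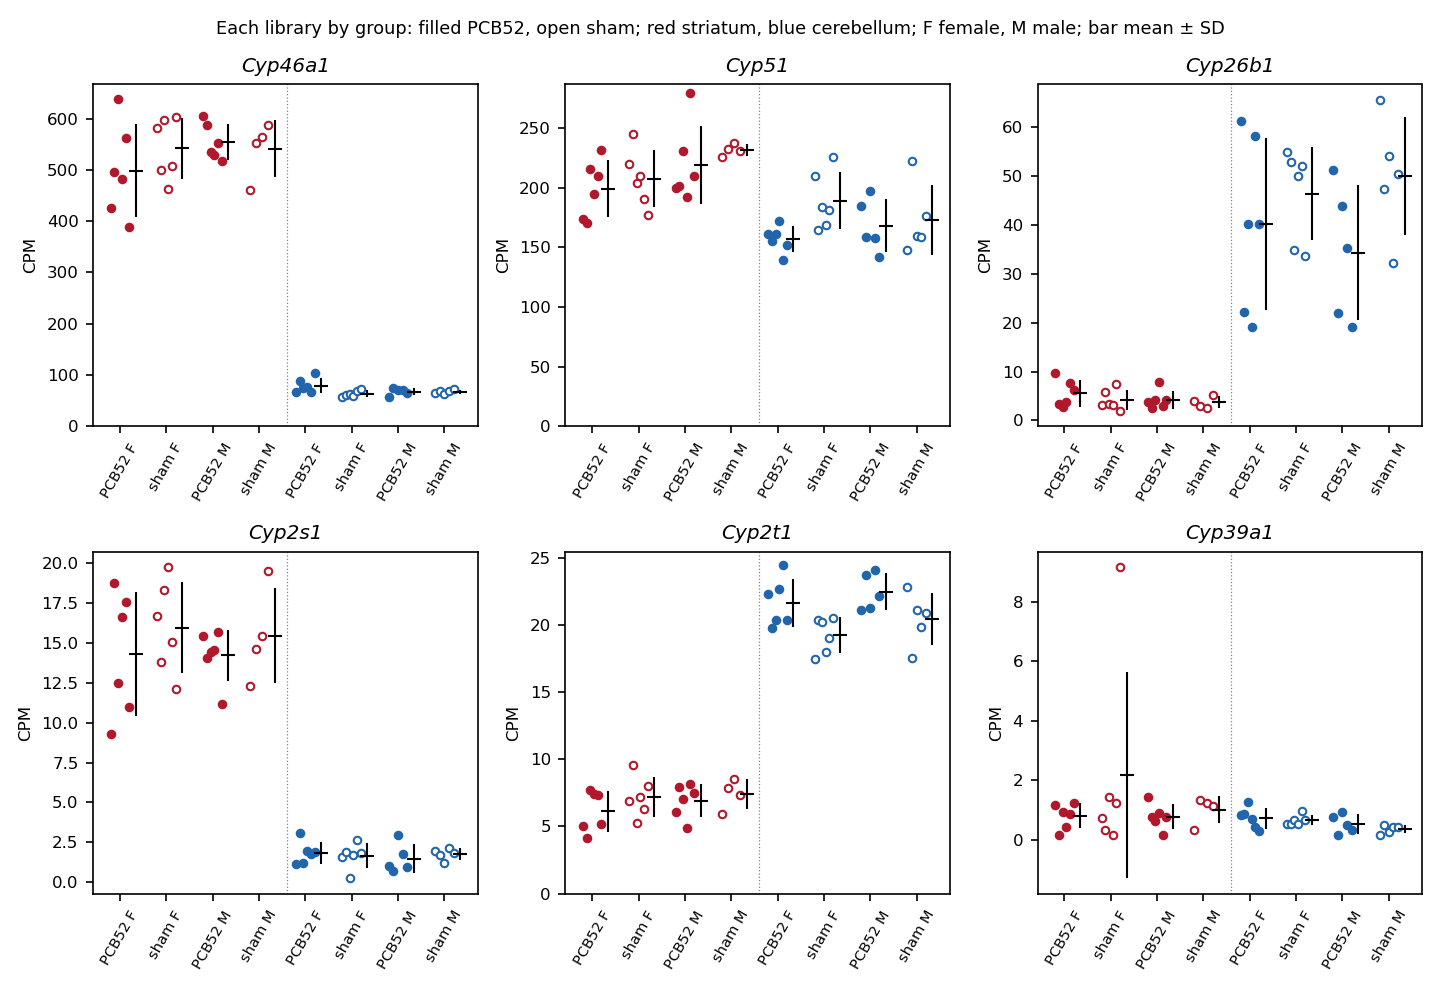
CPM of 6 members in each library by region, sex and exposure, with filled points for PCB52, open points for sham, and bars for the mean ± SD of a group. Cyp46a1, Cyp26b1, Cyp2s1 and Cyp2t1 differ in level between regions, exposed and sham points overlap in every pair, and 1 sham female stands alone at 9.16 CPM for Cyp39a1 in striatum.

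Females and males were compared over both treatments, since many liver P450 genes of the rat differ by sex. In this comparison 1 striatal and 4 cerebellar libraries with transcripts of both sexes were counted under their labelled sex. In striatum 0 of 27 members passed, against 0.0494% of the 12142 genes, and in cerebellum 0 of 24, against 0.0257% of the 11690. DESeq2 and limma voom also called 0 in both, with 3 and 7 members under an unadjusted 0.05 in striatum and 1 and 3 in cerebellum. At an unadjusted edgeR p under 0.05 there were 4 of 27 members in striatum, all lower in females, against 3.26% of all genes. The difference was negative in 21 of the 27 members and in 5730 of the 12142 genes. Cyp2j10 differed by -0.60 ± 0.22, Cyp4f1 by -0.31 ± 0.12, Cyp4f6 by -0.22 ± 0.10 and Cyp20a1 by -0.16 ± 0.07 (lowest edgeR adjusted p = 1.00). Striatal Cyp2j10 ran from 2.19 through 4.34 to 6.33 CPM in PCB52 females and from 1.61 through 3.20 to 6.90 CPM in sham females, against 4.16, 5.81 and 8.91 CPM in PCB52 males and 7.02, 4.14, 4.28 and 7.34 CPM in sham males. Females lay lower with broad overlap. Of the 6 striatal libraries with markers of another tissue, 5 were from females, and without these 6 the number of members under 0.05 was 0. In cerebellum 1 of 24 members was under 0.05, against 1.56% of all genes, and this was Cyp4b1 at 0.78 ± 0.32, followed by Cyp4x1 at 0.25 ± 0.16 and Cyp4f5 at 0.22 ± 0.14 (lowest edgeR adjusted p = 1.00). The liver genes known for their sex difference, Cyp2c11 of males and Cyp2c12 of females, had 24 and 0 reads over all striatal libraries and 2 and 0 over the cerebellar ones.

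Genes that serve the P450 enzymes were taken from a list of electron donors, heme enzymes, receptors and next-step enzymes, of which 34 were tested. Between regions 15 of the 34 were higher and 14 lower in striatum, beside 38.5% higher and 42.4% lower over all 12446 genes tested. A call between regions was thus common among all genes too. Por, the electron donor of microsomal P450s, differed by 0.90 ± 0.05 on the log2 scale, higher in striatum (edgeR adjusted p = 4.97e-21), and Fdxr, the mitochondrial donor's reductase, by -1.13 ± 0.07 (edgeR adjusted p = 1.37e-18). Alas1, the first enzyme of heme synthesis, differed by -0.76 ± 0.04. The receptor genes Ahr and Nr1i3 (CAR) differed by 0.45 ± 0.15 and 0.51 ± 0.05, and Arnt, the partner of AHR, by -0.47 ± 0.12. With PCB52, 0 of the 34 passed in any comparison of either region by edgeR. In striatum the lowest p-values were for Hmox2 at -0.32 ± 0.11 and Cyb5r3 at -0.20 ± 0.08 in females and for Ephx2 at 2.08 ± 1.00 and Por at -0.14 ± 0.08 in males. In cerebellum they were for Cpox at -0.26 ± 0.11 and Fdxr at 0.21 ± 0.11 in females and for Nr1h2 at 0.44 ± 0.17 and Alad at 0.45 ± 0.19 in males. Within each sex and region, the share of partner genes with an unadjusted edgeR p under 0.05 was below that of all genes. In striatum it was 8.82% against 13.4% in females and 0% against 0.898% in males. In cerebellum it was 2.94% against 3.16% in females and 11.8% against 14.3% in males. With both sexes averaged it was higher in striatum, at 8.82% against 5.8%. In cerebellum it was then lower, at 11.8% against 14.8%. For the female minus the male effect it was 2.94% against 3.88% in striatum and 2.94% against 2.17% in cerebellum. For the exposure effect in striatum minus that in cerebellum it was 20.6% against 18.3%. Over both sexes the lowest p-values were for Hmox2 at -0.21 ± 0.09 and Cyb5a at -0.21 ± 0.10 in striatum and for Nr1h2 at 0.32 ± 0.12 and Fdxr at 0.20 ± 0.08 in cerebellum. The female effect minus the male effect was -2.77 ± 1.29 for Ephx2 and 0.41 ± 0.22 for Fdxr in striatum, and -0.40 ± 0.16 for Fech and -0.47 ± 0.28 for Nr1h3 in cerebellum. The exposure effect in striatum minus that in cerebellum was -0.46 ± 0.17 for Hmox2 and -0.30 ± 0.13 for Ppox. Between females and males the lowest p-values were for Ppox at 0.13 ± 0.08 and Por at -0.07 ± 0.06 in striatum and for Ephx1 at -0.22 ± 0.16 and Rara at -0.10 ± 0.09 in cerebellum, and 0 partner genes passed.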

How the data were processed

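The deposited files are 2 tables of whole-number read counts per gene, 1 per region, not normalized, with Entrez gene identifiers. RNA came from tissue punches of striatum and cerebellum, per the labels' protocols. FastQC, HISAT2 and the rat build rn6 are named in the submitters' processing notes; the sources used here do not name the read counter, annotation or strand setting. Libraries were made after poly(A) capture or rRNA removal, without a statement of which library had which. Of 15319 identifiers, 15230 matched a symbol in a RefSeq table of GRCr8, used for names and gene order; promoter windows are of the same build. Of 47 samples in the labels, 44 had a count column; those not analysed here are sham males 5 and 7 of striatum and sham male 5 of cerebellum.

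Counts were tested with edgeR 4.0.16 (R 4.3.3; quasi-likelihood F-test, TMM, default filter on low counts), with 4 group means per region, and 8 group means over both regions. Tests were two-sided, with Benjamini-Hochberg adjustment over all genes tested. Levels are CPM scaled by TMM-adjusted library size over all 44 libraries; list means are of log2 CPM with a prior count of 2. Errors of log2 fold changes are standard errors. The code was tested on simulated counts. DESeq2 1.42.0, limma 3.58.1 (voom), RLE factors, no filter, other thresholds of detection, left-out libraries and an animal block were alternatives. Regions pair by animal, per the labels, in 21 animals; the correlation of an animal's 2 deviations had a median of 0.09 (range -0.38 to 0.49). The lowest chi-square per degree of freedom between libraries of a group was 3.50, so none was counted as a duplicate.

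Members and lists were chosen with earlier results of these data known. Every member detected at 1 CPM was named, with up to 12 called members per direction in a comparison, the 3 of lowest p where none passed, and the 2 partner genes of lowest p in a comparison. Rara, Fdxr, Alas1, Ahr, Nr1i3 and Arnt between regions, Cyp1a1, Cyp1b1, Cyp2c11 and Cyp2c12 as known inducible or sex-linked liver genes, and the genes whose promoters are printed were chosen after their values were seen. Roles of members were assigned by subfamily.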

Additional observations from a re-analysis of the deposited data

Results flagged for a closer look

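Within groups of 4 to 6 animals, 14 of 204 sets of values held a library far from the others, and about 1 in 20 sets would do so by chance. In striatum, PCB52 male 19 held 7.79 CPM of Cyp26b1 against 2.60 to 4.16 in the other PCB52 males, and PCB52 male 23 held 11.1 CPM of Cyp2s1 against 14.1 to 15.7. PCB52 female 14 held 33.0 CPM of Cyp2d4 against 42.3 to 47.3 in the other PCB52 females. PCB52 female 24 stood high in a pair of genes, with 9.14 CPM of Cyp4f1 against 6.48 to 7.02 and 32.3 CPM of Cyp7b1 against 24.9 to 27.3. Sham female 4 held 2.35 CPM of Cyp2d1 against 0.146 to 0.872 in the other sham females, and 6.27 CPM of Cyp3a9 against 3.66 to 4.38. Sham female 12 held 9.16 CPM of Cyp39a1 against 0.146 to 1.45. Sham male 11 held 18.8 CPM of Cyp4f4 against 10.2 to 11.6 in the other sham males.

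In cerebellum, PCB52 male 19 held 13.5 CPM of Cyp2u1 against 8.03 to 9.19 in the other PCB52 males, and PCB52 male 23 held 28.5 CPM of Cyp4f5 against 14.1 to 18.2. PCB52 male 21 was low in Cyp4f17, at 3.68 CPM against 5.51 to 6.23, and high in Cyp4f4, at 3.87 CPM against 1.65 to 2.13. PCB52 female 20 held 4.69 CPM of Cyp3a9 against 0.690 to 2.10 in the other PCB52 females.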

How the results depend on the processing

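No Cyp gene was called in any exposure or sex comparison with DESeq2, limma voom, RLE factors, no filter, only the groups compared, or libraries left out one at a time or by marker. Between regions 23 members were called, 25 with DESeq2 or voom, 24 with RLE, 34 with no filter (more genes tested), 25 without libraries holding transcripts of both sexes, 22 without those holding other tissue, and 22 to 25 with each library left out. With the animal as a replicate block, in the paired fit of 21 animals, 22 were called. Of the 23, Cyp2d1 fell below the filter and was not tested without striatum PCB52 female 18, PCB52 female 20 or sham female 4, and Cyp2j3 lost its call, at -0.13 ± 0.06 under the block (edgeR adjusted p = 0.0646), -0.11 with RLE factors (adjusted p = 0.0537) and -0.11 without other tissue (adjusted p = 0.0651); the cause was not tested. Detection at 1 CPM gave 28 members in striatum, 22 to 33 under other rules and 27 to 28 with each library left out, and 23 in cerebellum, 19 to 34 and 22 to 23. The block changed no other call. What depth alone limits was not tested.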
